A study of Mus musculus with 2 samples.

Results

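The genes that make and release glucose in liver were read in 2 RNA-seq libraries of mouse liver, 1 labelled Lrg1 knockout (KO) and 1 labelled wild type. The set held 8 genes of the 22609 gene symbols in the count files and was chosen by symbol: 6 encode enzymes (G6pc, G6pc3, Pck1, Pck2, Fbp1 and Pcx) and 2 encode transporters (Slc37a4 and Slc2a2). All 8 were found and all 8 passed the filter for a measured gene, at least 50 reads summed over both libraries, as did 11411 genes in all. The first is labelled as liver of male C57BL/6 mice with a whole-body knockout of Lrg1, which encodes a secreted leucine-rich glycoprotein, and the second as liver of male wild-type mice, C57BL/6J in the treatment protocol. Both groups ate a diet with 45% of calories from fat for 16 weeks, starting at 8 weeks of age. The labels do not say whether 1 library stands for 1 mouse or a pool, nor at what hour or after what fast the liver was taken, and they do not describe the deleted allele.

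Liver makes glucose from lactate, amino acids and glycerol and exports it in the fasted state. Pyruvate carboxylase (Pcx) and phosphoenolpyruvate carboxykinase (Pck1 in the cytosol, Pck2 in mitochondria) bypass the irreversible pyruvate kinase step of glycolysis, fructose bisphosphatase (Fbp1) bypasses phosphofructokinase, and glucose 6-phosphatase (G6pc, or the widely expressed G6pc3) makes free glucose in the endoplasmic reticulum. Slc37a4 carries glucose 6-phosphate into that compartment, and Slc2a2 encodes GLUT2, the glucose transporter of the hepatocyte plasma membrane. Glucagon, acting through cAMP and CREB, and FOXO1, which insulin restrains, are known to drive transcription of G6pc and Pck1.

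The promoters of G6pc and Pck1, the known CREB and FOXO1 targets whose reads were higher in the library labelled KO, and of both transporters, whose reads were lower, are printed to set their letters beside the values. Sequences and starts are those of RefSeq on GRCm38.p6, a later build than the mm9 named for the counts, and run from 250 bases before to 50 bases after an annotated start, all on the plus strand. G6pc is at chr11:101367466-101367765, Pck1 at chr2:173152823-173153122, Slc37a4 at chr9:44396696-44396995, the most upstream of its 3 annotated starts, and Slc2a2 at chr3:28697653-28697952. Capitals mark matches to the searched motifs.
G6pc: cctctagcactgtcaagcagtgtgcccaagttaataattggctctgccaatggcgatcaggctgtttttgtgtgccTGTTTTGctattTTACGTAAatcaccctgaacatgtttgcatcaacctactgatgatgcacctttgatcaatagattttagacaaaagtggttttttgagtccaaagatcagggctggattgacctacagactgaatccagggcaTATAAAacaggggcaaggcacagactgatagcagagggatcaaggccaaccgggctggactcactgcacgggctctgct
Pck1: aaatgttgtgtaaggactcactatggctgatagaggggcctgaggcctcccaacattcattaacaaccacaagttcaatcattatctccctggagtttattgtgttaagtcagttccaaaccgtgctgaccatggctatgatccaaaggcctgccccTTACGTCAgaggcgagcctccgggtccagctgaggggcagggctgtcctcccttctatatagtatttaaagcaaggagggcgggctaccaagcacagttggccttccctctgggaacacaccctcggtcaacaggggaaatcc
Slc37a4: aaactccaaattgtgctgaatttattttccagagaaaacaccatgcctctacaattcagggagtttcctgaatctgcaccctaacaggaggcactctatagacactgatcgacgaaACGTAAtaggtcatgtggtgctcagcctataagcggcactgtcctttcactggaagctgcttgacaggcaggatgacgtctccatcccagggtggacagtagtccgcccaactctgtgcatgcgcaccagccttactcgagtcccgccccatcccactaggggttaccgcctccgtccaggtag
Slc2a2: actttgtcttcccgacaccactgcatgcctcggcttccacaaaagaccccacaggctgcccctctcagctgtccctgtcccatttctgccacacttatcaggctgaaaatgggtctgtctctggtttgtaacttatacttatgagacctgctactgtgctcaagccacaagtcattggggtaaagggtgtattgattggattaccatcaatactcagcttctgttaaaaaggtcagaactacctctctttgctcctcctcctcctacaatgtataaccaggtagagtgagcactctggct

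The motifs were searched on both strands, TATAAA on the sense strand only, in all promoters of the 8 genes. The cAMP response element variants TTACGTCA and TTACGTAA were searched because they are known from the promoters of Pck1 and G6pc, so their presence there is no finding. TTACGTCA began 93 bases before the start of Pck1 and was in 0.499% of 32851 mouse promoter windows of the same length. TTACGTAA began 162 bases before the start of G6pc and was in 0.119% of windows. TTACGT, which both variants contain, was also found in reverse 134 bases before the printed start of Slc37a4, a gene with lower reads in the library labelled KO, and was in 2.72% of windows. TGTTTTG, the core of known insulin response elements, was in the promoters of G6pc and Pck2 and in 6.28% of windows. The E-box CACGTG was in those of G6pc3 and Pcx and in 7.15% of windows, and TATAAA in those of G6pc and, at another start, Slc37a4 and in 8.32%. The palindrome TGACGTCA (1.79% of windows) and the FOXO motif TGTTTAC (3.65%) matched 0 of the 8 genes, and Slc2a2 and Fbp1 matched none of the motifs. A match describes letters in this window only.

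The library labelled KO held 18738397 reads in genes and the wild-type library 23311906. Levels are CPM, read counts scaled to library size by TMM (trimmed mean of M-values), and 1 read was worth 0.0519 CPM in the library labelled KO and 0.0441 CPM in wild type. All intervals are exact 95% intervals of counting error, which reads without molecular identifiers may make too narrow. No replicate check and no test exist with 1 library a group, and a difference between genotypes cannot be told from one between these libraries. Lrg1 itself had 17572 reads in the library labelled KO and 26958 in wild type, which is 911 CPM in the library labelled KO and 1190 CPM in wild type, so the counts did not show the loss that the label names, and every direction below is drawn from a library so labelled. Relative to wild type, 1.71% of all measured genes lay above 2-fold and 2.49% below it in the library labelled KO, 48.4% had a log2 ratio above 0 and 51.6% below it, and the median log2 ratio was -0.01.

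Both transporters were lower in the library labelled KO, while the enzymes went both ways. Of the 6 enzymes, G6pc, Pck1 and Pck2 had more reads per library size in the library labelled KO, Pcx had fewer, and Fbp1 and G6pc3 did not differ beyond counting error under TMM, a call that Fbp1 loses under 3 of the 4 other scalings. Only G6pc, 1 of 8 genes, was at least 2-fold higher, against 1.71% of measured genes, and only Slc37a4, 1 of 8, at least 2-fold lower, against 2.49%. Among the 4981 genes with at least 1000 reads in all, to which the set gives 6 genes and among them these 2, the share 2-fold apart in either direction was 2.59%. Intervals excluded a ratio of 1 for 6 of the 8 genes, against 48.6% of measured genes. Abundant genes have narrow intervals, as all of the 8 but Pck2 and G6pc3 do. The median log2 ratio (library labelled KO over wild type) was 0.28 over the 6 enzymes, and the transporters lay at -1.15 and -0.76.

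**Figure D1:**
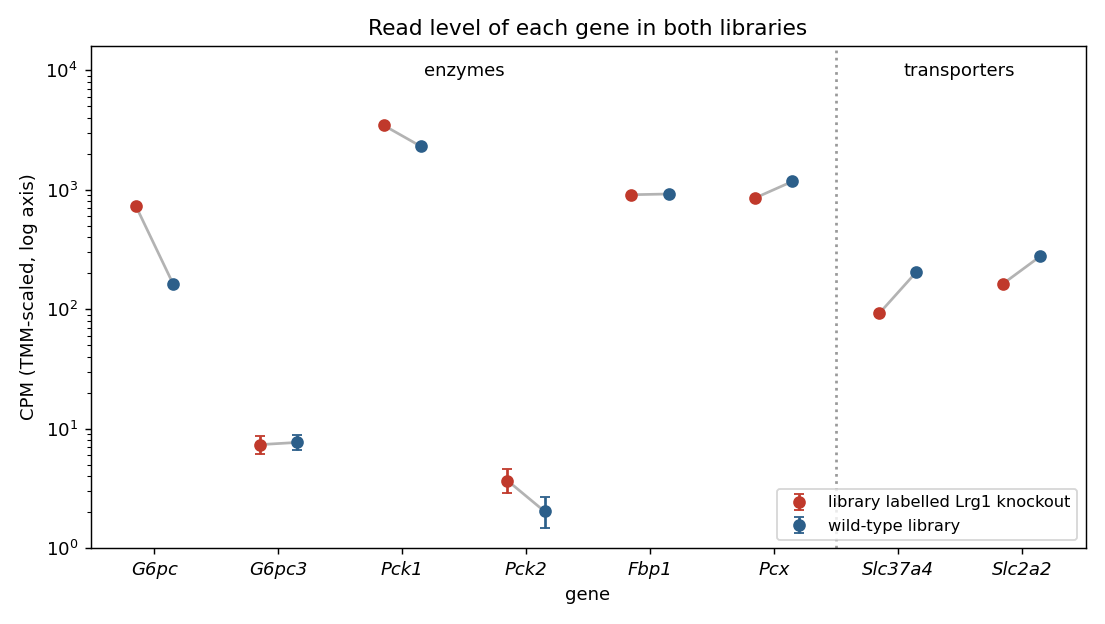
Read level of each gene (CPM, log axis) in the library labelled KO (left point of each pair) and the wild-type library (right point), with exact Poisson intervals that are visible only for G6pc3 and Pck2. G6pc stands at 734 CPM in the library labelled KO and at 164 CPM in wild type, while both transporters lie lower in the library labelled KO.

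G6pc, the catalytic subunit of glucose 6-phosphatase in liver, differed most of the 8. It had 14152 reads in the library labelled KO and 3718 in wild type. These are 734 CPM (722 to 746) and 164 CPM (159 to 169), a ratio of 4.47 (4.31 to 4.64) and a log2 ratio of 2.16. Of measured genes, 99.8% had a lower ratio. By reads G6pc ranked at place 168 among all genes of the library labelled KO and at place 848 in wild type.

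G6pc3, the paralog that is expressed in most tissues, had 142 reads in the library labelled KO and 174 in wild type, 7.36 and 7.68 CPM. Its ratio of 0.959 had an interval from 0.763 to 1.20, so a difference beyond that range was not seen and a smaller one was not detectable at this depth. Its log2 ratio, -0.06, was 0.02 under total-count scaling and 0.06 under hepatocyte scaling. The third gene of the family, G6pc2, which is known from pancreatic islets, had 0 reads in both libraries, which allows up to 0.156 CPM in the library labelled KO and 0.132 CPM in wild type (3 counts). The ratio of G6pc to G6pc3 reads was 99.7 in the library labelled KO and 21.4 in wild type. That is a 4.66-fold difference (3.70 to 5.88) which does not depend on how the libraries are scaled.

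Pck1, the cytosolic carboxykinase, was the most abundant of the 8 in both libraries. It had 66866 reads, 3468 CPM (3441 to 3494), in the library labelled KO and 52373 reads, 2312 CPM (2292 to 2332), in wild type. The ratio was 1.5 (1.48 to 1.52), a log2 ratio of 0.58, below the 2-fold threshold. Of all reads in the 8 genes, Pck1 took 55.6% in the library labelled KO and 45.6% in wild type.

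Pck2, the mitochondrial form, had 71 reads in the library labelled KO and 46 in wild type, so its ratio of 1.81 carried a wide interval, 1.23 to 2.69. Its log2 ratio was 0.85, and 1.05, past 2-fold, when the wild-type library was thinned to the depth of the other. The Pck1 to Pck2 read ratio was 942 in the library labelled KO and 1139 in wild type, and the ratio of these, 0.827 (0.558 to 1.22), included no difference. Among 50-base stretches of the longest Pck2 transcript, 1.86% also occur in transcripts of other genes, and 53 exon bases overlap an antisense gene. For the other 7 genes no such stretch of the longest transcript was shared and no exon base overlapped another annotated gene.

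Fbp1, the fructose bisphosphatase of liver, had 17537 reads in the library labelled KO and 20899 in wild type, 909 and 923 CPM. The ratio of 0.986 (0.966 to 1.01) included no difference. Its log2 ratio, -0.02, turned positive with an interval above 0 in 3 other scalings: 0.062 by total count, 0.039 when the 20 most abundant genes stayed out of that total, and 0.10 by hepatocyte genes. The call of no difference for Fbp1 thus depends on the scaling. Its muscle-type paralog Fbp2 had 10 reads in the library labelled KO and 20 in wild type, too few to pass the filter.

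Pcx, which makes oxaloacetate from pyruvate in mitochondria, was the enzyme with lower reads in the library labelled KO. It had 16498 reads there, 856 CPM (843 to 869), and 26640 in wild type, 1176 CPM (1162 to 1190). The ratio was 0.727 (0.713 to 0.742), a log2 ratio of -0.46, and 10.1% of measured genes had a lower one. The first steps from pyruvate, Pcx and Pck1, thus stood on opposite sides of 0.

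Slc37a4, the glucose 6-phosphate translocase, had the lowest ratio of the set. It had 1780 reads in the library labelled KO and 4647 in wild type, 92.3 CPM (88.1 to 96.7) and 205 CPM (199 to 211). The ratio was 0.450 (0.426 to 0.475), a log2 ratio of -1.15, and 1.83% of measured genes had a lower one. Slc37a4 is just past the 2-fold threshold, and its ratio stayed past it under every scaling tried. Its log2 interval, however, included 2-fold under total-count scaling (-1.15 to -0.99) and hepatocyte scaling (-1.11 to -0.95).

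Slc2a2, which encodes GLUT2, was lower without reaching 2-fold. It had 3159 reads in the library labelled KO and 6287 in wild type, 164 and 278 CPM, with a ratio of 0.590 (0.565 to 0.616) and a log2 ratio of -0.76. Of measured genes, 4.29% had a lower ratio. The Slc2a2 to Slc37a4 read ratio was 1.77 in the library labelled KO and 1.35 in wild type, so Slc37a4 was the lower of both relative to wild type (1.31-fold, 1.22 to 1.41).

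**Figure D2:**
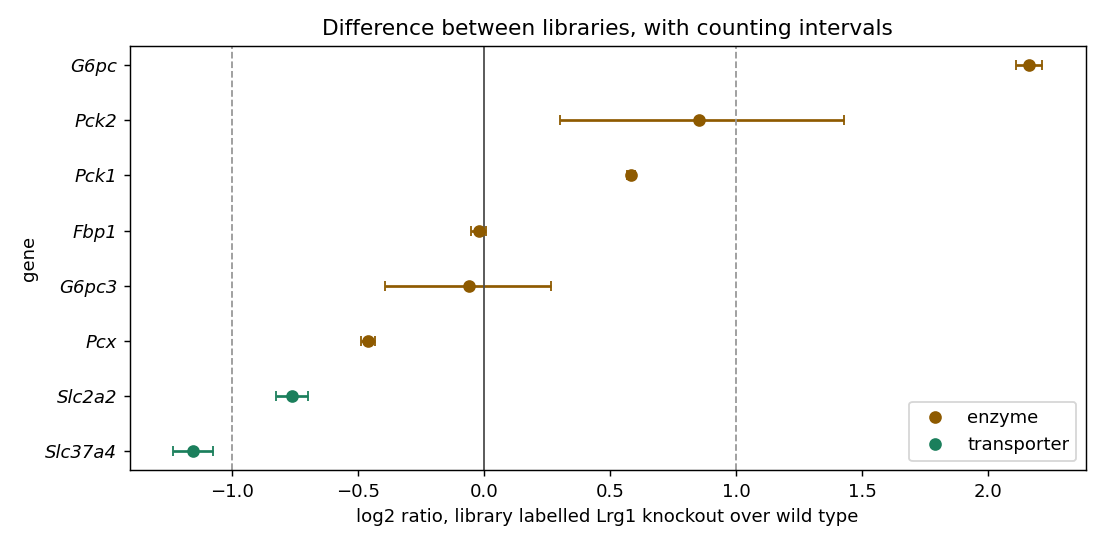
Log2 ratio of the library labelled KO over wild type for each gene (x axis), enzymes in brown and transporters in green, bars giving 95% counting intervals and dashed lines 2-fold. Both transporters lie below 0 and G6pc lies at 2.16, while Fbp1 and G6pc3 have intervals that include 0 under TMM; that of Fbp1 lies above 0 under 3 other scalings.

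G6pc and Slc37a4, whose products act together in the endoplasmic reticulum, lay at the ends of the set. Per Slc37a4 read there were 7.95 G6pc reads in the library labelled KO and 0.800 in wild type, a 9.94-fold difference (9.30 to 10.6) that no scaling can alter. Per Pck1 read there were 0.212 G6pc reads in the library labelled KO and 0.0710 in wild type, a 2.98-fold difference (2.87 to 3.10), so the higher enzymes did not differ by the same factor.

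**Figure D3:**
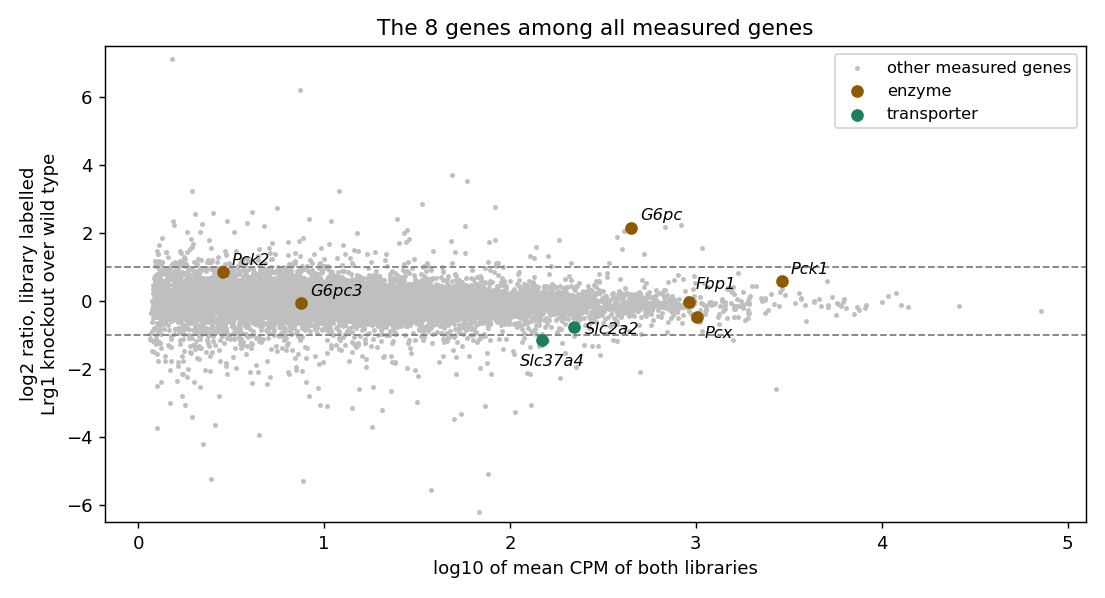
Log2 ratio (y axis) against the log10 of the mean CPM of both libraries (x axis) for all 11411 measured genes in grey, with the 6 enzymes in brown and the 2 transporters in green. Dashed lines mark 2-fold, past which lie G6pc above and Slc37a4 below.

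Summed over the 6 enzymes, the level was 5977 CPM in the library labelled KO and 4584 CPM in wild type. Without Pck1 and G6pc the other 4 enzymes summed to 1776 CPM in the library labelled KO and 2108 CPM in wild type, so the higher sum came from these 2 genes. The transporters summed to 256 CPM in the library labelled KO and 483 CPM in wild type, a ratio of 0.531 (0.513 to 0.549). Together the 8 genes took 0.641% of reads in genes in the library labelled KO and 0.492% in wild type.

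Divided by the length of all annotated exons, which allows levels of different genes to be compared, the order in the library labelled KO was Pck1 with 1011 CPM per kilobase, Fbp1 with 534, G6pc with 304, Pcx with 180.0, Slc37a4 with 32.3, Slc2a2 with 28.5, G6pc3 with 3.31 and Pck2 with 0.472. In wild type Pck1 was at 674 CPM per kilobase, Fbp1 at 542, Pcx at 247, Slc37a4 at 71.8, G6pc at 68.0, Slc2a2 at 48.2, G6pc3 at 3.45 and Pck2 at 0.260. G6pc thus stood at place 3 in the library labelled KO and at place 5 in wild type, where its interval (65.8 to 70.2) overlapped that of Slc37a4 (69.8 to 73.9). The other neighbours were separated beyond counting error in both libraries, and the order was the same with the longest transcript as the length.

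Of the 7 other Slc37a and Slc2a family genes with at least 50 reads, 0 were 2-fold apart. Of all measured genes, 1.71% were 2-fold higher and 2.49% 2-fold lower, so 0 of 7 is near that share and no finding. Slc37a3 was at a log2 ratio of 0.46 with 683 reads in the library labelled KO and 583 in wild type, while Slc37a1 (-0.15) and Slc37a2 (0.04) had intervals that included no difference. Among glucose and hexose carriers, Slc2a9, a urate transporter, was at -0.48 and the fructose transporter Slc2a5 at -0.57, and intervals of Slc2a1 (0.12) and Slc2a8 (-0.11) included 0. Slc2a4, the insulin-responsive carrier of muscle and fat, had 3 reads in the library labelled KO and 1 in wild type.

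Genes of glucose use and of its control were mostly lower in the library labelled KO. Of 17 measured genes of glucose use, 14 had a log2 ratio below 0, against 51.6% of measured genes. The interval lay below 0 for 9 of them, against 3037 of 11411 measured genes. At least 2-fold lower were 4, against 2.49% of measured genes, and at least 2-fold higher was 1, against 1.71%. The median log2 ratio was -0.30 against -0.01 over all measured genes. This list also holds inhibitors of glucose use, of which Gckr (-0.42) and Pdk2 (-0.34) were lower and Pdk1 (0.05, interval including 0) and Pdk4 higher. Its counts are therefore not a direction of glucose use. Pfkfb3, which makes a phosphofructokinase activator, had 130 reads in the library labelled KO and 376 in wild type (log2 ratio -1.30). Pdk4, which inhibits pyruvate dehydrogenase, was at 1.14 with 753 reads in the library labelled KO and 400 in wild type, and the phosphofructokinase Pfkp at 0.51, within its counting error of 0.

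Set against an enzyme that acts the other way or shares its substrate, Pck1, Fbp1 and Pcx differed in size. These pairs were chosen after their values were seen. Per read of Pklr, the liver pyruvate kinase, there were 49.3 Pck1 reads in the library labelled KO and 14.2 in wild type, 3.47-fold (3.26 to 3.70). Per read of Pfkl, the liver phosphofructokinase, there were 23.5 Fbp1 reads in the library labelled KO and 23.1 in wild type, and this ratio of 1.02 (0.919 to 1.12) included no difference. Pcx per read of Pdha1, a subunit of pyruvate dehydrogenase that uses the same pyruvate, was at 5.01 in the library labelled KO and 5.30 in wild type, a ratio of 0.945 (0.900 to 0.992).

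**Figure D4:**
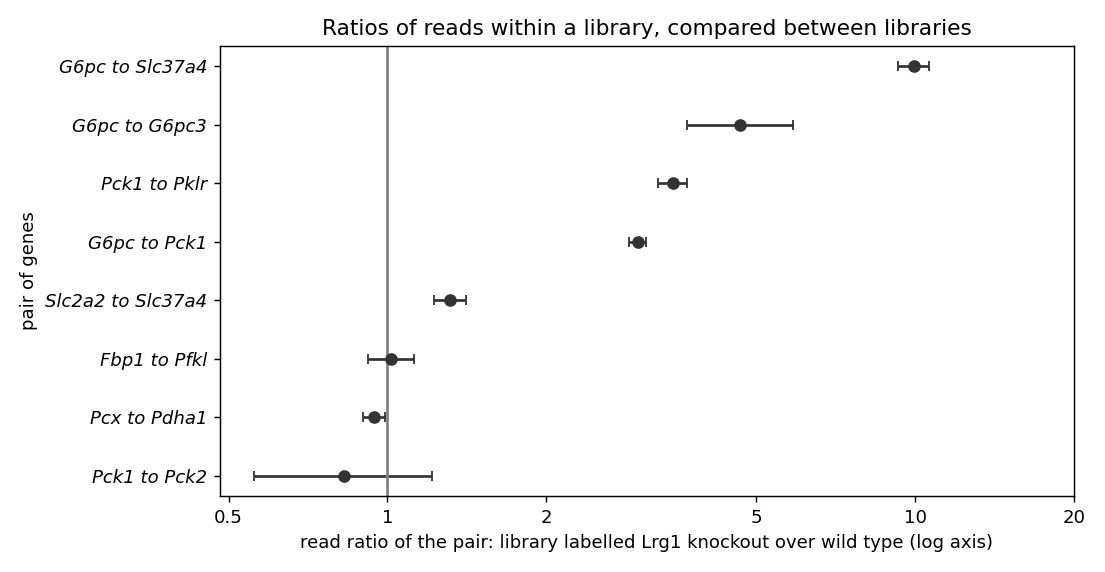
Ratio of reads of a pair of genes within a library, given as the library labelled KO over wild type (log axis), with exact 95% intervals; the line at 1 marks no difference. The pair of G6pc with Slc37a4 lies at 9.94, while those of Fbp1 with Pfkl and of Pck1 with Pck2 include 1.

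Of 8 measured genes of the steps that gluconeogenesis shares with glycolysis, 7 had a log2 ratio below 0, but the interval lay below 0 for 5 and included it for 3, Pgam1, Aldoa (-0.03) and Eno3 (0.01). The median was -0.21, and 1 gene, Aldoc, was at least 2-fold lower (-1.25), against 2.49% of measured genes. Pgk1 was at -0.36, and the values of Pgk1 and Pgam1 are uncertain because 68.0% of the 50-base stretches of the Pgk1 transcript and 41.5% of those of Pgam1 also occur in transcripts of other genes. Of 20 genes that bring substrates to the pathway, 9 had a log2 ratio above 0 and 11 below it (median -0.09), with intervals that excluded 0 for 8 and 11 of them. Slc16a1, which carries lactate and pyruvate across the plasma membrane, had 3690 reads in the library labelled KO and 1802 in wild type (1.27), and Tat, a tyrosine aminotransferase, was at 0.66. Sds, the serine dehydratase, had 1762 reads in the library labelled KO and 3817 in wild type (-0.88), and the alanine aminotransferase Gpt2 was at -0.70.

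Known regulators of G6pc and Pck1 lay on both sides of 0. Their list pools activators and repressors, so no shared direction is to be expected and the counts do not give one of regulation. Of 32 measured transcription regulators, 12 had a log2 ratio above 0 and 20 below it, against 48.4% and 51.6% of measured genes. Intervals included 0 for 7 of the 32. Past 2-fold lay 1 of the higher and 3 of the lower genes, against 1.71% and 2.49% of measured genes. Nr4a1, an orphan nuclear receptor that cAMP induces, had 271 reads in the library labelled KO and 59 in wild type (2.42), and Onecut1 was at 0.98. The circadian repressor Per2 was at -2.63 and Nr0b2, the corepressor SHP, at -1.61. Foxo1 (-0.37), Hnf4a (-0.51) and the coactivator Ppargc1a (0.05, interval including 0) were named after their values were seen.

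Of 22 measured genes of hormone signalling, 12 had a log2 ratio above 0 and 10 below it (median 0.01), 8 with an interval that included 0. Sik1, a cAMP-induced kinase that restrains CREB coactivators, had 798 reads in the library labelled KO and 176 in wild type (2.41), and Irs2, an insulin receptor substrate, had 472 reads in the library labelled KO and 214 in wild type (1.37). Fkbp5, a glucocorticoid target, had 541 reads in the library labelled KO and 2508 in wild type (-1.98), and Per1 was at -1.81. The glucagon receptor Gcgr (0.03) and the insulin receptor Insr (-0.01), named after their values were seen, had intervals that included no difference. Of 11 FOXO1 target genes other than the 8, 3 lay above 2-fold and 2 below it, against 1.71% and 2.49% of measured genes. Igfbp1 was at 1.80, Irs2 at 1.37, Bcl6 at -1.12 and Trib3 at -1.30. Some of the 11, Irs2 and Trib3 among them, are also counted in the lists above.

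**Figure D5:**
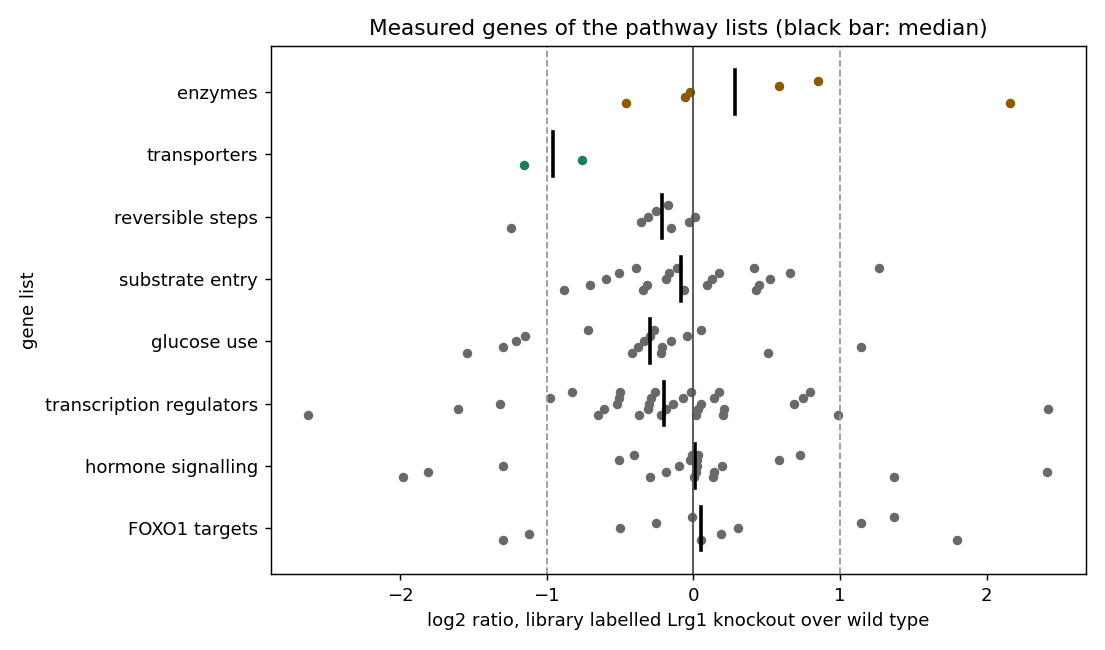
Log2 ratio of the library labelled KO over wild type (x axis) for measured genes of each list (rows), with the median as a black bar and 2-fold as dashed lines. The transporters lie at the low side and the enzymes spread from -0.46 to 2.16, and the glucose use list has a median of -0.30.

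Markers of the labelled tissue were present. All 25 hepatocyte markers were measured, with 168661 CPM in all in the library labelled KO and 189325 in wild type, and 6 were higher and 19 lower (median log2 ratio -0.12). Periportal hepatocytes, where Pck1 and G6pc are known to be highest, had markers other than Pck1 that were lower in 9 of 11 cases (median -0.37). Pericentral markers were lower in 9 of 12 (median -0.18), and of all measured genes 51.6% were lower. The part of these shifts in the results was not tested, and in bulk tissue fewer cells of a type and less RNA per cell cannot be told apart. Pck1 is also a gene of fat and kidney, and Slc2a2 of islets. Of 10 adipocyte markers other than Pck1, 5 were measured and all 5 were lower in the library labelled KO (median log2 ratio -1.40). Of these, 3 were at least 2-fold lower, against 2.49% of measured genes. The 10 summed to 83.5 CPM in the library labelled KO and 282 CPM in wild type. Cidea had 30 reads in the library labelled KO and 1667 in wild type, Cfd had 104 in the library labelled KO and 711 in wild type, and Cidec had 968 in the library labelled KO and 3003 in wild type. Lep, Retn and Plin1 had 0 reads in both libraries, and Adipoq had 4 in the library labelled KO and 1 in wild type. Most of the wild-type sum came from Cidec (133 CPM) and Cidea (73.6 CPM). The lower sum is therefore not a measure of less fat tissue in the library labelled KO. The part of these markers in the values of the 8 genes was not tested. In addition, 7 of 11 kidney tubule markers and 9 of 10 pancreatic markers had 0 reads in both, and kidney markers summed to 37 reads in the library labelled KO and 39 in wild type. The other pancreatic marker, Cela1, had 446 reads in the library labelled KO and 378 in wild type, a ratio of 1.39 (1.21 to 1.59). Kupffer cell markers were lower in 11 of 12 cases (587 CPM in the library labelled KO and 763 in wild type), against 51.6% of measured genes. At least 2-fold lower were 2 of them, against 2.49%. Sinusoidal endothelial markers were higher in 8 of 10 (385 CPM in the library labelled KO and 265 in wild type), against 48.4%. At least 2-fold higher were 2 of these, against 1.71%. Neutrophil markers, set beside G6pc3 because loss of that gene is known to cause neutropenia, summed to 166 reads in the library labelled KO and 174 in wild type.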

How the data were processed

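Per the labels' protocols, poly(A) RNA of liver went into stranded libraries, read from one end over 50 bases. Per the submitters' processing notes, bcl2fastq, TopHat2, HTSeq and the build mm9 were used; versions, annotation and counting strand were not given in the sources used here. Raw counts for each symbol were deposited by the authors and used unchanged. Lines that name no gene stayed out of library sizes: reads outside genes were 14.4% of uniquely aligned reads in the library labelled KO and 14.0% in wild type, and reads in more than 1 gene 0.234% in the library labelled KO and 0.231% in wild type. Alignments to several places were 58.0% of all lines in the library labelled KO and 50.3% in wild type.

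Counts were scaled by TMM in edgeR 4.0.16 (R 4.3.3), and log2 ratios taken after a prior count of 0.5. Ratios have Clopper-Pearson, levels Poisson and pair ratios exact conditional odds-ratio intervals, for counting error only. Called means at least 2-fold. Exon lengths, overlaps and shared 50-base stretches came from GENCODE M21 (GRCm38), promoters from RefSeq. The ratio of a gene, its interval and the 2-fold call were tested on simulated Poisson counts with known folds. The other steps were not tested in this way, and such counts hold no variation between animals. The rest used Python 3.11.15 (pandas 2.3.3, scipy 1.17.1, numpy 2.4.6, matplotlib 3.10.9).

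The genes and lists were chosen with earlier results of these data known. Members of the set were left out of the other lists. Beside the 8 genes, Lrg1 and their measured paralogs, the rule named in each list the 2 highest and 2 lowest log2 ratios, and for G6pc and Slc37a4 the 3 nearest ratios among genes with at least 1000 reads; 2 genes of these lists are not reported here. Alternatives were 4 other scalings (total count, DESeq2 1.42.0 size factors, total without the 20 most abundant genes, hepatocyte genes), thinning, prior count, filter, threshold and gene length.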

Additional observations from a re-analysis of the deposited data

Results flagged for a closer look

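Alignments to more than 1 place, which enter no gene's count, numbered 30368128 lines in the library labelled KO and 27554856 in wild type, many more than the limit that a count of 0 allows (3 counts), in a line that no comparison reads. Of the 8 genes only Pck2 shared any 50-base stretch with transcripts of other annotated genes.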

How the results depend on the processing

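No paired analysis was possible because each group has 1 library. Under total-count scaling the log2 ratios were 2.24 for G6pc, 0.67 for Pck1, 0.062 for Fbp1, -0.38 for Pcx, -1.07 for Slc37a4 and -0.68 for Slc2a2. Without the 20 most abundant genes in the total they were 2.22 for G6pc, 0.64 for Pck1, 0.039 for Fbp1 and -0.40 for Pcx. With scaling by hepatocyte genes, which moves every log2 ratio by 0.12, they were 2.28 for G6pc, 0.71 for Pck1, 0.10 for Fbp1, -0.34 for Pcx, -1.03 for Slc37a4 and -0.64 for Slc2a2, and the median of substrate entry genes turned to 0.036. These shifts follow from the scaling. Under that scaling 273 measured genes were 2-fold higher and 229 lower, against 195 and 284 under TMM, so the higher share was 54.4% in place of 40.7%. After thinning, 2 of the 8 genes were 2-fold higher, Pck2 being added by the draw on its few reads. At 1.5-fold, 2 of 8 were higher and 2 lower, with 672 and 788 of all measured genes; at 3-fold, 0 of 8 were lower, with 52 measured genes higher and 105 lower. From 1 read, 1246 genes were higher and 1379 lower at 2-fold, from 10 reads 461 and 519, and from 200 reads 101 and 166. A lower filter admits more genes and genes with fewer reads, whose ratios are less certain. The number of genes tested differs between these filters, so the counts cannot be compared as shares. Pck2 and G6pc3 are limited by depth. Of the values recomputed under an alternative, 151 stayed within their interval, or within 1.5 times for counts, and 55 moved beyond it. For a median, that interval ran from the median of its genes' lower bounds to that of their upper bounds, which is not a counting interval of the median. The 1 other value, the median of substrate entry genes, turned sign, a label given only where the TMM interval excluded 0. Some of the 151 also changed sign, such as the median of the 8 genes, -0.04 under TMM and 0.04 under total-count scaling. Medians of paralogs and of hormone signalling genes did so too, each under 1 alternative. Among those that moved, Fbp1 turned sign under 3 scalings, where its interval, which includes 0 under TMM, lay above 0. Intervals of the other 7 genes kept their side of 0, or still included it for G6pc3, under all 4 other scalings.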

Other observations

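Genes with the log2 ratio nearest to that of G6pc were Mup11 at 2.17, Selenbp2 at 2.20 and Mup7 at 2.23, and those nearest to Slc37a4 were Slc23a1, a vitamin C transporter, Pfkfb1, the liver enzyme that sets the phosphofructokinase activator, and Txndc11, which lay within 0.00715 of it. Likeness is the difference of 1 ratio over 2 libraries, and Mup genes are close copies whose single values are uncertain.

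Several enzymes of the shared steps were listed at low or no reads. Eno1 had 0 reads in both libraries, and 72.2% of the 50-base stretches of its longest transcript also occur in transcripts of other genes. Gapdh had 10 reads in the library labelled KO and 38 in wild type, with 27.8% of stretches shared. The share was 68.0% for Pgk1, with 162 reads in the library labelled KO and 244 in wild type, and 41.5% for Pgam1, with 107 in the library labelled KO and 142 in wild type. Values of Eno1, Gapdh, Pgk1 and Pgam1 are therefore uncertain.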
